A study of Drosophila melanogaster with 2 samples.

Results

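The 10 genes described here encode molecular chaperones of Drosophila melanogaster. They were chosen by name, with earlier results of these data known, of 13945 protein-coding genes on the 6 chromosome arms. They comprise 6 constitutive chaperones (Hsp83, Hsc70-3, Hsc70-4, Hsc70-5, Hsp60A and Droj2) and 4 small heat shock genes (Hsp22, Hsp23, Hsp26 and Hsp27). Chromatin immunoprecipitation and sequencing (ChIP-seq) had been carried out in 2 biological replicates of whole larvae at the wandering stage, with both sexes pooled and the age not known. The larvae came from 1 transgenic line that stably expressed CG9705, a cold-shock domain protein, with GFP at its C terminus, and there was no second genotype, treatment or heat-shocked group. Whole larvae mix all tissues, so a peak cannot be assigned to a cell type. The free text of both labels calls the libraries an input control, whereas the antibody field names CG9705 and the assay title is TF ChIP-seq. They are treated here as ChIP samples, and under the free-text reading the peaks would mark enrichment in sheared chromatin instead.

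Each replicate has a relaxed list of 30000 peaks, the pool of both has another 30000, and the authors kept an optimal set of 3533 by the irreproducible discovery rate, a measure of how well 2 replicates rank the same peaks. All peaks whose summit lay in a gene body or within 5 kb of it were collected, and a summit within 500 bp of an annotated transcript start counted as a promoter peak. The relaxed lists are labelled as peaks and background, so an entry of low rank need not mark binding. Offsets are negative upstream of a start. The peak score is the authors' own, has no stated scale and is used only to rank peaks within a list, with rank 1 the highest. The lists hold no read counts, so depth is unknown. With 1 group of 2 samples no test was possible, and the value in each replicate stands as the error.

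Chaperones bind unfolded proteins and help them fold or keep them from aggregating. Constitutive chaperones are made in unstressed cells, and many are induced further by heat. Small heat shock proteins form oligomers that hold unfolded proteins, and their genes sit together at cytological position 67B. In flies these genes are switched on both by heat, through the heat shock factor HSF, and by the moulting hormone ecdysone late in larval life. HSF binds inverted repeats of the unit GAA, called heat shock elements.

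The DNA around the best pooled promoter summit is shown for 5 genes where that summit lies outside all annotated exons. Hsp83 and Hsc70-5, whose summits lie in a 5' UTR, are among those left out. The promoter counts and ranks rest on summit positions and not on these runs. Each run has the summit at base 61, is on the gene's strand, lies outside all annotated exons and comes from RefSeq Release 6, the assembly of dm6. Capitals mark an inverted pair of heat shock units (GAANNTTC or TTCNNGAA).
Hsp27, chr3L:9383870-9383990, plus strand: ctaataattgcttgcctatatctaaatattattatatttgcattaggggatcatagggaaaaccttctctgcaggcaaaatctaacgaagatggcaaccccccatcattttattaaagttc
Droj2, chr3R:13381931-13382051, plus strand: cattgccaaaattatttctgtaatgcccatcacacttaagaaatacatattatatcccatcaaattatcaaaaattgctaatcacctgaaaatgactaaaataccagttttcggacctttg
Hsc70-4, chr3R:15242430-15242550, plus strand: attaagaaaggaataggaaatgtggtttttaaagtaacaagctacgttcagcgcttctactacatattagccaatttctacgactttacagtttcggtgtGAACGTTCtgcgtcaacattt
Hsc70-3, chrX:11806390-11806510, minus strand: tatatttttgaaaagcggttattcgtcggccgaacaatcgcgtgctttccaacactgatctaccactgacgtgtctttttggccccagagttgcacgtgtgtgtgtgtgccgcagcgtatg
Hsp60A, chrX:11108251-11108371, plus strand: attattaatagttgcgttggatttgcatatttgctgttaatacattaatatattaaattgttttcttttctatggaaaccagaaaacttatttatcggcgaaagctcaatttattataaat
Of these 5 runs, the one at Hsc70-4 holds a heat shock pair.

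Of the chosen genes, the constitutive chaperones mostly had a reproducible promoter peak, and among the small heat shock genes Hsp27 alone did. The choice was made with earlier results of these data known, so the counts describe these genes and not chaperones in general. An optimal summit lay within 500 bp of a start for 5 of 6 constitutive chaperones and 1 of 4 small heat shock genes, against 19.1% of all protein-coding genes. Other chaperone lists had a lower share than the constitutive chaperones, with 3 of 8 chaperonin CCT genes and 5 of 19 co-chaperones and organelle chaperones. Among the 3533 best peaks of replicate 1 the counts were 6 of 6 and 2 of 4, against 18.2% of all genes, and among those of replicate 2 they were 5 of 6 and 1 of 4, against 19.7%. The gain in replicate 1 came from Hsp60A and Hsp22. In the relaxed pooled list, which also holds background, all 10 genes had a promoter peak, as did 53.9% of all genes. The deposited −log10 q value of that peak was 3.77 at Hsp27, 1.85 at Hsp22, 0.959 at Hsp23 and 0.722 at Hsp26. The constitutive chaperones have 2 to 6 annotated starts and the small heat shock genes 1 or 2, so more bases count as promoter at the former. With only the most upstream start the optimal counts were 4 of 6 and 1 of 4. The share of all genes was not computed for that setting. With the wider reach of 5 kb around the gene body the order turned: 5 of 6 constitutive chaperones and 4 of 4 small heat shock genes had an optimal summit, against 43.9% of all genes. Within the gene body alone the counts were 3 of 6 and 1 of 4, against 9.47% of all genes. With a promoter window of 1000 bp they were 5 of 6 and 3 of 4, against 21.6%, and the small heat shock genes added were Hsp22 and Hsp26. Genes in a cluster share peaks, and the 4 small heat shock genes reached only 4 distinct optimal peaks, each of which counted for 2 or 3 of them. The constitutive chaperones reached 9 distinct optimal peaks with none in common.

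**Figure D1:**
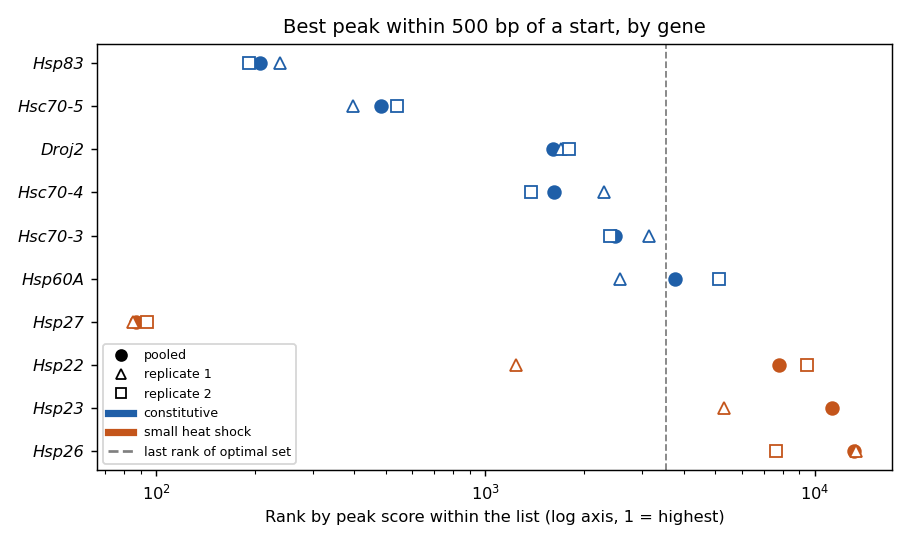
Rank of each gene's best peak within 500 bp of a transcript start (log axis) in the pooled list (filled circles), replicate 1 (triangles) and replicate 2 (squares), with constitutive chaperones in blue, small heat shock genes in orange and a dashed line at rank 3533, the last of the optimal set. Hsp27 sits between 85 and 94 in all lists, the constitutive chaperones between 191 and 5110, and Hsp23 has no such peak in replicate 2.

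The promoter peaks of the constitutive chaperones spanned pooled ranks 207 to 3756, with a median of 1610. The median was 1996.5 in replicate 1 and 1586.5 in replicate 2. For the small heat shock genes the pooled ranks were 87, 7789, 11269 and 13211, with a median of 9529, and the median was 3284.5 in replicate 1 and 8561.5 in replicate 2, where Hsp23 was placed after the last peak. The 7515 protein-coding genes with a relaxed promoter peak had a median pooled rank of 5714. Apart from Hsp27, the small heat shock genes ranked below all 6 constitutive chaperones in the pooled list and in replicate 2, whereas in replicate 1 Hsp22 at rank 1243 came ahead of 4 of them.

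**Figure D2:**
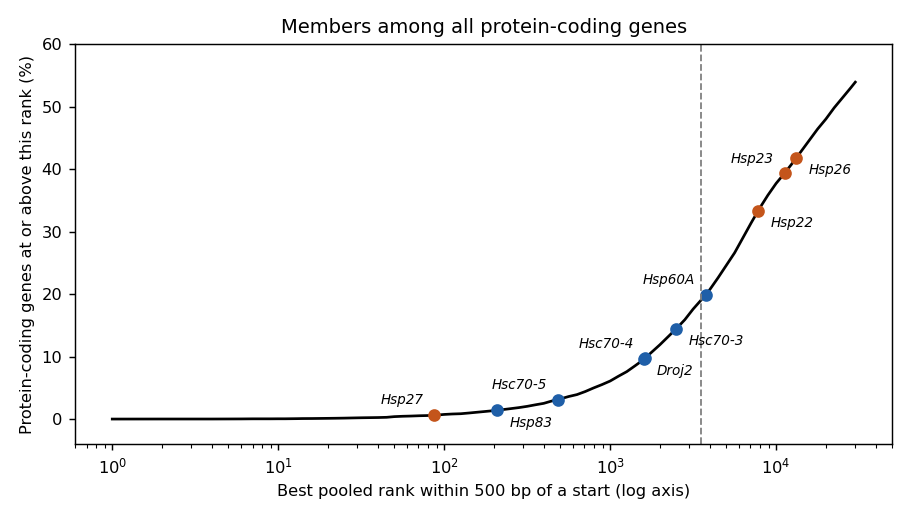
Share of all protein-coding genes (%) whose best promoter peak has at least a given rank in the pooled list (log axis), with the constitutive chaperones (blue) and small heat shock genes (orange) marked and a dashed line at rank 3533. Hsp27 lies at 0.624% of genes and Hsp83 at 1.41%, whereas Hsp26 lies at 41.8%.

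Hsp83 encodes the fly Hsp90, the cytosolic chaperone of kinases and steroid receptors, and had the strongest promoter peak of the constitutive group. The peak (chromosome 3L, 3192911 to 3193233) ranked 207 in the pooled list with a score of 558, 237 in replicate 1 and 191 in replicate 2. Only 1.41% of protein-coding genes had a promoter peak of that rank or better. The gene has 2 annotated starts, 247 bp apart, and the summit fell between them, 120 bp downstream of the upper and 127 bp upstream of the lower. The replicate summits were at 120 bp and 126 bp from the upper start. Hsp83 also had an optimal peak in its first intron, 1054 bp downstream of the lower start, at pooled rank 2624, rank 2013 in replicate 1 and rank 3887 in replicate 2. Of the 6 constitutive chaperones it had the most optimal peaks in reach, 4. The other two lay beyond its 3' end at neighbouring starts: rank 1305 in the 5' UTR of gry, 49 bp downstream of its start and at -92 bp from CG32276, and rank 3063 at -15 bp from CG14966.

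Droj2 and Hsc70-4 had nearly equal pooled ranks. Droj2 encodes a DnaJ (Hsp40) co-chaperone that stimulates the ATPase of Hsp70 proteins. Its promoter peak (3R, 13381791 to 13382190) ranked 1607 in the pooled list, 1695 in replicate 1 and 1795 in replicate 2, with summits at -115, -70 and -126 bp. The same peak lay at -182 bp from mRpS21, which encodes a mitochondrial ribosomal protein and starts on the opposite side.

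Hsc70-4 encodes the main cytosolic Hsc70, which also uncoats clathrin vesicles. Its optimal peak (3R, 15242394 to 15242548) was the narrowest of the 13 at these genes, 155 bp wide, and ranked 1613 in the pooled list, 2298 in replicate 1 and 1378 in replicate 2. The summits were at -197, -211 and -197 bp from the most upstream of 6 starts, and the pooled summit was at -254 bp from tefu, the fly ATM kinase. Weaker peaks lay within the gene. One at 82 bp downstream of the first start ranked 4504, 8490 and 6599 in the pooled list, replicate 1 and replicate 2, and one at -105 bp from an inner start ranked 4792. Near the latter, replicate 1 had a summit at -109 bp with rank 7957 and replicate 2 one at -241 bp with rank 5449. Neither peak was in the optimal set.

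Hsc70-3 encodes BiP, the Hsp70 of the endoplasmic reticulum. Its promoter peak (X, 11806250 to 11806649) ranked 2484 in the pooled list, 3141 in replicate 1 and 2390 in replicate 2. The summit belonged to the second of 4 starts, at -97, -72 and -84 bp, and was 667 bp downstream of the most upstream one. At that most upstream start the best pooled peak ranked 9905, at -241 bp. The nearest replicate peaks there ranked 17856 at -207 bp and 5734 at -61 bp, so the inner start carried the stronger peak in every list.

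Hsp60A encodes the mitochondrial Hsp60 chaperonin and was the constitutive chaperone that missed the optimal set. Its best peak (X, 11108111 to 11108510) ranked 3756 with a score of 94.2, just under the lowest optimal score of 98.4. It ranked 2562 in replicate 1 and 5110 in replicate 2, so the replicates lay on different sides of rank 3533. The summits were at -171, -152 and -239 bp. Its second start had no optimal peak either, and the best peak within 500 bp of it was at -102 bp with rank 20899, in replicate 1.

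Hsc70-5 encodes the mitochondrial Hsp70, known as mortalin in mammals, and came second in the group. Its promoter peak (2R, 14256045 to 14256305) ranked 483 in the pooled list with a score of 381, 397 in replicate 1 and 538 in replicate 2. The summits were at 24, -28 and 29 bp from the upstream one of its 2 starts. A second optimal peak at -175 bp, rank 1009, had its summit nearer to the head-to-head gene CG8531, at -126 bp. That second peak was uneven between replicates, with ranks of 5261 in replicate 1 and 1547 in replicate 2.

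**Figure D3:**
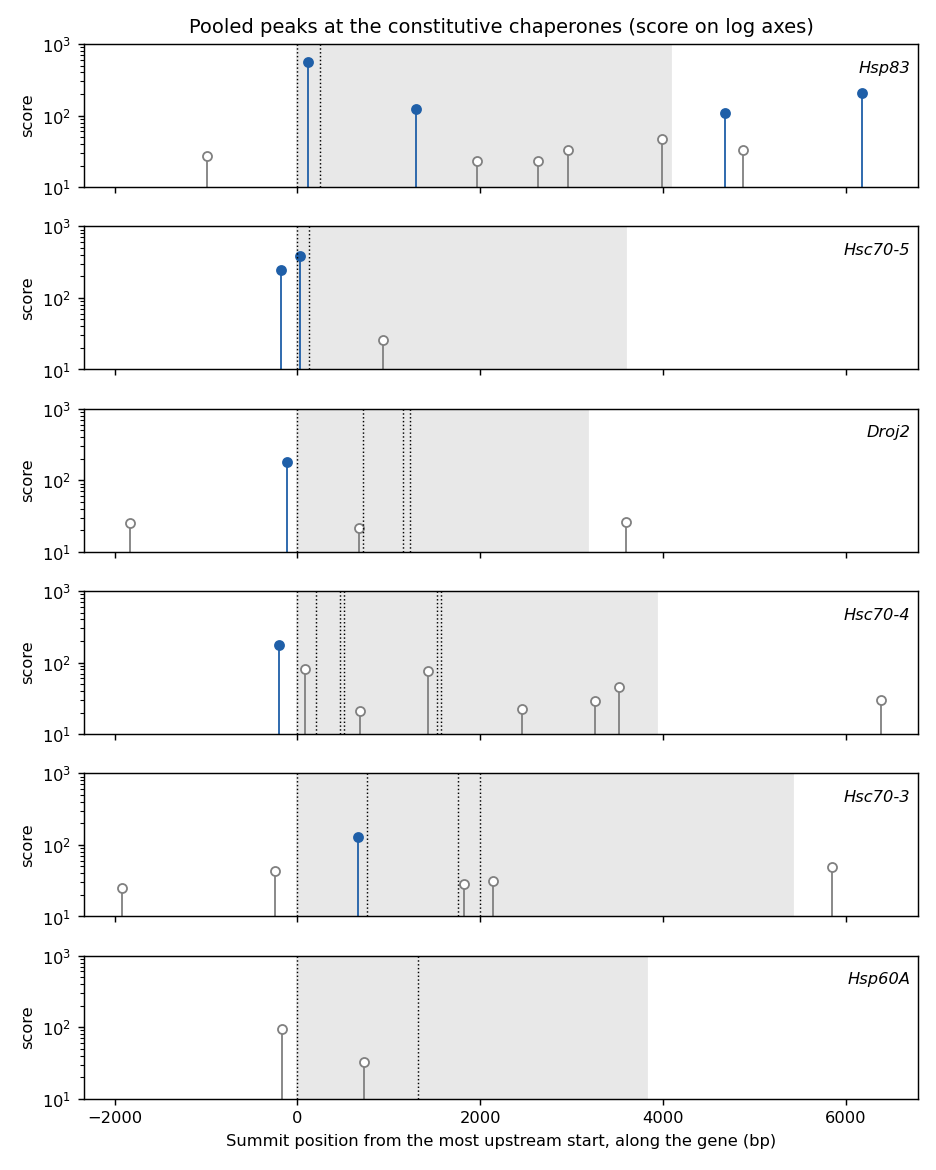
Pooled peaks at the 6 constitutive chaperones: each stem is a summit, placed by its distance in bp from the most upstream start along the gene, and its height is the peak score (log axes). Filled blue points are optimal peaks, open grey points are other relaxed peaks, the grey band is the gene body and dotted lines are annotated starts; the highest stem of each gene lies within 500 bp of a start, at Hsc70-3 an inner one.

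Hsp27 encodes a small heat shock protein found largely in the nucleus and had the strongest promoter peak of the 10 genes. The peak (3L, 9383755 to 9384092) ranked 87 in the pooled list with a score of 797, 85 in replicate 1 and 94 in replicate 2. A promoter peak of that rank or better was held by 0.624% of protein-coding genes. The summits were at -133, -132 and -144 bp from its only start, and no other gene had a start within 500 bp. The replicate summits were 12 bp apart.

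Hsp22 encodes the small heat shock protein of the mitochondrial matrix, and its strongest peak lay between its 2 starts. This optimal peak (3L, 9373284 to 9373683) ranked 1721 in the pooled list, 1243 in replicate 1 and 2733 in replicate 2. The pooled summit was at -513 bp from the downstream start, 13 bp outside the promoter window, and the replicate summits were at -472 and -509 bp. The promoter count of Hsp22 therefore changes with a small shift of the summit. It lay in the 5' leader of the long Hsp22 transcript, and CG4456, the gene formerly called Hsp67Bb, has its 3' UTR over the same bases. The peak cannot be assigned to one of these overlapping genes. Within 500 bp of a start the best pooled peak of Hsp22 was the weaker one at 187 bp, with rank 7789.

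Hsp23, a cytosolic small heat shock gene of a single start, had its stronger pooled peak at the 3' end. That peak had its summit 759 bp downstream of the start in the 3' UTR and ranked 4029 in the pooled list, outside the optimal set. Replicate 1 had a peak of rank 2178 with the summit at 792 bp, and replicate 2 one of rank 3211 with the summit at 582 bp in the coding exon. Each was thus among the 3533 best of its list. Their summits are 210 bp apart, beyond the 100 bp used here to match summits, so they are not shown to be the same peak. At the Hsp23 start itself a summit at 59 bp ranked 11269 in the pooled list and 5326 in replicate 1, and replicate 2 had no peak within 500 bp.

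Hsp26, the other cytosolic member, had no strong peak in its gene or at its starts. Its best promoter peak ranked 13211 in the pooled list, 13392 in replicate 1 and 7636 in replicate 2, with summits at 44, 451 and -141 bp, so the lists did not place it at the same site. The nearest optimal peak was at -856 bp from the nearer of its 2 starts and ranked 3023. That peak lay in the coding exon of Hsp67Ba and within the antisense RNA gene asRNA:CR43481, 123 bp from the start of the latter. Whether the summit fell in an exon or an intron of asRNA:CR43481 was not determined. The peak was uneven between replicates, with the nearest summits at rank 9253 in replicate 1 and 1900 in replicate 2.

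The remaining optimal peak of the cluster was also within asRNA:CR43481, at -1130 bp from Hsp23, with exon or intron again not determined. It ranked 2133 in the pooled list, 2253 in replicate 1 and 2718 in replicate 2. The 4 optimal peaks of the cluster thus comprised 1 at the Hsp27 promoter, 1 inside the long Hsp22 transcript and 2 in asRNA:CR43481. In the relaxed pooled list 18 distinct peaks lay in reach of the 4 genes, and 17 of them were shared between genes.

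**Figure D4:**
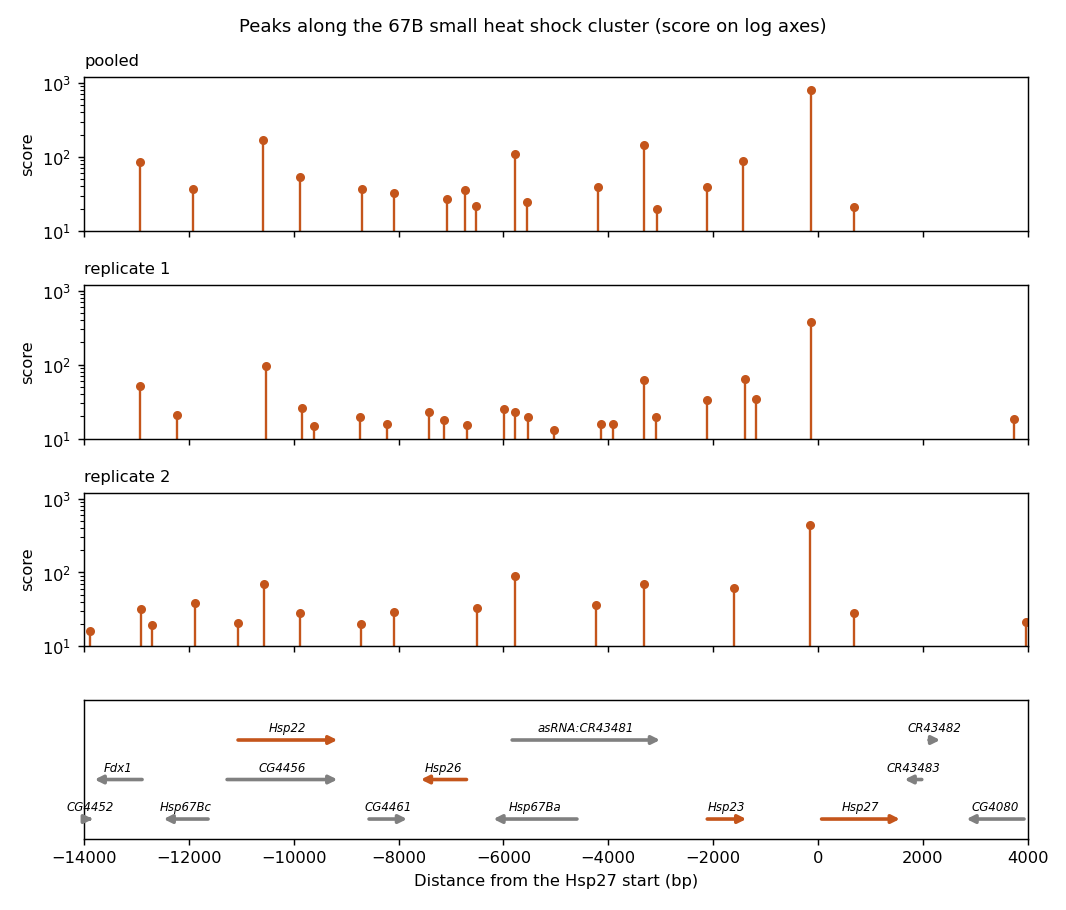
Peaks along the 67B cluster in the pooled list and each replicate, as peak score (log axes) against distance in bp from the Hsp27 start. Arrows in the lowest panel show genes and their direction, the 4 small heat shock genes in orange, and genes reaching past the panel are cut at its edge; the summit at -133 bp is the highest in each list, with scores of 797, 373 and 434.

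Best promoter summits lay on both sides of the starts. Of the 6 genes with an optimal promoter peak, the best summit was upstream of the gene's nearest start for Hsc70-3, Hsc70-4, Droj2 and Hsp27, whereas 89.2% of the 2661 genes with such a peak had it upstream. The exceptions were Hsp83 and Hsc70-5, where the summit lay between 2 starts and nearer to the upper one. It was 127 bp upstream of the lower start at Hsp83 and 107 bp upstream of it at Hsc70-5. At Hsp83 the replicate 2 summit was nearer to the lower start, at -121 bp from it and 126 bp from the upper, so the nearest start changed while the summit moved by 6 bp. At Hsc70-5 the replicate 1 summit was upstream of the same start, at -28 bp. Over all 2661 genes the median offset was -127 bp, with quartiles at -208 and -61 bp. The 4 upstream summits of these 6 genes, from -197 to -97 bp, lay within these quartiles. Among the genes without an optimal promoter peak, the best pooled summit was upstream at Hsp60A (-171 bp). It was downstream at Hsp22, Hsp23 and Hsp26 (187, 59 and 44 bp).

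The optimal set was itself selected for agreement between replicates, and the 13 optimal peaks near these genes recurred at about the share of the whole set. By a reciprocal overlap of at least 50% in both replicate lists 11 of 13 were matched, against 81.6% of all optimal peaks, and the unmatched pair were the narrow Hsc70-4 peak and the second Hsc70-5 peak. By a summit within 100 bp in both lists all 13 were matched, against 95.7% of all optimal peaks. The median distance between the replicate summits was 15 bp at these peaks and 26 bp over all 3533. The largest, 129 bp, was at the gry start.

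Heat shock pairs were found in 8 of the 10 promoters and in 2 of the 13 summit windows. From 250 bp before to 50 bp after any start, 5 of 6 constitutive chaperones and 3 of 4 small heat shock genes held GAANNTTC or TTCNNGAA, against 19.9% of all protein-coding genes; Hsc70-5 and Hsp27 held none there. Both patterns read the same on either strand and may overlap each other, and genes with more starts have more bases to match. A run of 3 alternating units was found in this window at Hsc70-4, against 0.567% of genes. Within 100 bp of the 13 optimal summits, 2 windows held a pair, at Hsp83 and Hsc70-4, against 10.6% of all optimal windows. The pair at Hsp83 lay 63 bp from the summit and 64 bp upstream of the lower start, and that at Hsc70-4 lay 44 bp from the summit. At Hsp27 the only pair within 500 bp of the start lay at -334 bp, 201 bp from the summit.

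These 30-base stretches show heat shock pairs, in capitals, at Hsp83 near its summit, at Hsp27 away from its summit, and at Hsp23 and Hsp26, which had weak promoter peaks. They are on the gene's strand, from RefSeq Release 6.
Hsp83, chr3L:3193137-3193166, plus strand: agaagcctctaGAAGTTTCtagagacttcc
Hsp27, chr3L:9383714-9383743, plus strand: agaaatgtcaaGAAGTTTCtggttctttct
Hsp23, chr3L:9381466-9381495, plus strand: tctgcagtctcGAAGTTTCGCGAAtttact
Hsp26, chr3L:9377726-9377755, minus strand: ttttgcgctctTTCTAGAAaattgcaacaa
The octamer GAAGTTTC is the same at Hsp83, Hsp27 and Hsp23. Its reverse complement, GAAACTTC, occurs within 500 bp of a start at Droj2, Hsp22 and Hsp26, so the octamer is not limited to 3 genes. The Hsp23 stretch, at -401 bp, holds 2 overlapping pairs. It lies outside the window from 250 bp before to 50 bp after a start. So do the Hsp27 stretch at -334 bp and the Hsp26 stretch at -314 bp. Inside that window Hsp23 held pairs at -134 and -164 bp, and Hsp26 at 6, -125 and -213 bp. A match is a description of letters and not of HSF binding.

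Other promoter motifs were searched on both strands, with the promoter window here again from 250 bp before to 50 bp after any start. GAGAG, the core of the GAGA factor site, was in the promoter window of 4 constitutive chaperones and 3 small heat shock genes, against 36.3% of all genes, and in none of the 13 summit windows, against 21.3% of optimal windows. TATAA, the TATA box core, was in the promoter window of all 10 genes, against 70.9% of all genes, and in 9 of 13 summit windows, against 56.3%. ATTGG, the reverse of the CCAAT box, was in 4 and 2 promoters, against 53.3%, and in 3 summit windows, against 31.5%. TATCGATA, the site of DREF, was in the Hsp83 promoter, against 10.2% of genes, and GGTCACACT, close to the M1BP site, was in the Droj2 promoter, against 6.78%. Neither was in any of the 13 summit windows, and the shares over all optimal windows were 5.01% and 2.04%.

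Other chaperone genes had an optimal promoter peak at about the share of all genes, 8 of 42 listed against 19.1% of all protein-coding genes. The lists are small, so the counts within them are given as a description. The chaperonin CCT, the cytosolic ring that folds actin and tubulin, had 3 of 8 subunit genes: CCT3 (pooled rank 1083), CCT8 (2317) and CCT5 (3112). The summits were at -486 bp for CCT3 and -500 bp for CCT8, at the edge of the window. Co-chaperones and organelle chaperones had 5 of 19, and the 4 best were CG11267, the mitochondrial Hsp10 that caps Hsp60 (626), mrj, a DnaJ protein (1226), Gp93, the Hsp90 of the endoplasmic reticulum (1920), and Cdc37, the kinase co-chaperone of Hsp90 (1974).

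Of 8 other small heat shock and 67B genes 0 had an optimal promoter peak, against 19.1% of all protein-coding genes, and the best pooled ranks were 5910 for CG14207, 11587 for Hsp67Ba, 12524 for CG4461 and 12865 for Hsp67Bc. Of 7 genes of the stress-inducible Hsp70 group 0 had one, against the same 19.1%, and only Hsp68 had a relaxed pooled promoter peak, at rank 21215. The 6 Hsp70 genes are near-identical copies. How reads that map to several copies were treated is not given in the sources used here, so the lack of a peak at them is uncertain.

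**Figure D5:**
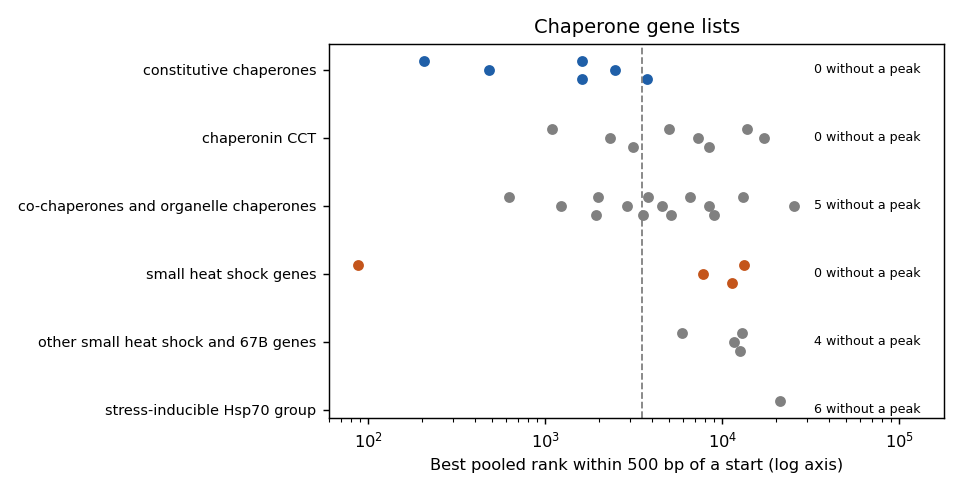
Best pooled rank within 500 bp of a start (log axis) for each gene of 6 chaperone lists, 1 point a gene, spread vertically for legibility; the dashed line is rank 3533, and genes with no such peak are counted at the right. The constitutive chaperones lie from 207 to 3756, and 6 of 7 genes in the stress-inducible Hsp70 group have no peak.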

How the data were processed

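The authors deposited peak lists in narrowPeak format on dm6, per the deposited file notes: a relaxed list for each replicate and for the pool, each derived from the alignments and 1 separate control file, and an optimal set derived from these lists. Chromatin was sheared to 200 to 800 bp, per the labels. Aligner, caller and cut-off: not given in the sources used here. Ranks were taken from the deposited signal value (column 7, scale not stated). The deposited −log10 q value is capped, with 2929 pooled peaks at its highest value, and column 8 holds -1 in all lines. Read depth is unknown.

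Gene models with 23998 transcript starts were those of Ensembl release 115 (BDGP6.54, dm6 coordinates, transposable elements left out), and sequences from RefSeq Release 6. Positions are 1-based. All 10 members and 39 of 42 other listed genes matched by symbol, and 3 through RefSeq synonyms (CG4456, CG14207 and Hsp110). The members and lists were chosen with earlier results of these data known, and all members are named; other genes are named where a start lay near an optimal peak in reach, or as the best 4 of a list. Assignment of peaks to genes was tested on simulated data, where 200 of 200 planted offsets were recovered among 13945 genes. The planted starts all stood far from other protein-coding starts. The test therefore checks the offset arithmetic and not the assignment at genes with several starts or close neighbours. Python 3.11.15, numpy 2.4.6, pandas 2.3.3 and matplotlib 3.10.9 were used. Alternatives were the promoter window, the reach, the peak set, the starts used, the overlap rule, the rank measure and each replicate alone.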

Additional observations from a re-analysis of the deposited data

How the results depend on the processing

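Promoter counts of the constitutive chaperones stayed between 4 and 6 of 6 under all 8 alternatives run, and their median rank was 1610 with windows of 250 and 1000 bp. The count of 6 came with the relaxed pooled list, where 53.9% of all genes have a promoter peak, and with replicate 1 alone (18.2%). The share of all genes was 21.6% with the 1000 bp window and 19.7% with replicate 2 alone. It is not given for the other settings, so their counts have no share to stand beside. Ranking by −log10 q, added after seeing the data, says nothing of that rank, since 2929 pooled peaks, with 5 of the 6 best peaks among them, tie at the highest value. Without replicate 1 or replicate 2 that median ranged from 1586.5 to 1996.5. The count of small heat shock genes was less stable: 3 of 4 with a 1000 bp window, which takes in Hsp22 and Hsp26 (21.6% of all genes), 4 with the relaxed pooled list, and 1 to 2 without 1 replicate. Their median rank was 2372 with the 1000 bp window and ranged from 3284.5 to 8561.5 without 1 replicate. With the gene body only, 3 constitutive chaperones and 1 small heat shock gene had an optimal summit, against 9.47% of all genes. Offsets from the nearest start changed sign for 5 genes. At Hsp83 (-121 to 120 bp without 1 replicate) the nearest start changed and the summit moved by 6 bp. At Hsp22 (-472 to 186 bp) and Hsp26 (-141 to 451 bp) a different peak was the best in each replicate. At Hsc70-3 (667 bp with only the most upstream start) that start is not the one nearest the summit. At Hsc70-5 (-28 to 29 bp) the replicate summits lay on either side of the same start. Both replicate peaks matched the same pooled peak, with reciprocal overlaps of 83.1% in replicate 1 and 72.8% in replicate 2. Ranking by −log10 p was not run, since that column holds -1 in every line. No paired analysis was possible because there is 1 group of 2 samples.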
